A study of Rattus norvegicus with 12 samples.

Results

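The VEGF, neuropilin and angiopoietin genes followed here are Vegfa, Vegfb, Vegfc, Vegfd, Pgf, Kdr, Flt1, Nrp1, Nrp2 and Angpt1. They were taken from the table of raw gene counts by symbol, as 10 of its 33294 genes, and 9 of them were among the 18438 genes that passed the filter on low counts. Kdr did not pass. Counts were read in 12 poly(A)-selected libraries of PAC1 cells, a smooth muscle line from rat pulmonary artery, cultured for a more differentiated state. All libraries came from cells given 90 pmol of siRNA by reverse transfection, given it again after 24 h and collected 48 h later per the labels, while the study's methods give longer intervals and the difference was not resolved. The 3 control libraries received the negative control siRNA C2, and 3 libraries each received an siRNA against RBPMS, RBFOX2 or QKI, whose gene is listed as Qk. The model is limited to 1 cell line and 1 siRNA for each target. The study also reports that control cells in its experiment with these knockdowns were less differentiated than those of its other sequencing experiment. The study's methods describe the repeats of a condition as biological replicates. The labels add nothing on separate cultures, and p-values weigh differences between groups against the spread between these libraries.

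Vascular endothelial growth factors are secreted dimers that bind tyrosine kinase receptors, mostly on endothelial cells, and drive the growth and permeability of vessels. Neuropilins are coreceptors without kinase activity that bind VEGFs and class 3 semaphorins. Smooth muscle cells and pericytes supply much of the ligand in a vessel wall, including angiopoietin-1, which activates the TIE2 receptor of neighbouring endothelium and stabilises the vessel.

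The sense strands of the siRNAs, as listed with the study, are shown because they define the groups. They are written 5′ to 3′.
C2: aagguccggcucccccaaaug
RBPMS: ggcggcaaagccgagaaggcgaaca
RBFOX2: gcaaugguucagccuuuua
QK: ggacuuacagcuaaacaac

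The region from 250 bases before to 50 after the annotated start was read from RefSeq (GRCr8) for 9 of the 10 genes. Of these, 3 promoters are shown. Those of Vegfc and Vegfd belong to related ligands that moved in opposite directions, and that of Nrp1 to a coreceptor that fell in all knockdowns. Capitals mark matches on either strand to ACGTG or GCGTG, the core that hypoxia-inducible factors bind, to TGANTCA, the AP-1 site, to the CArG box bound by serum response factor, or to TATAAA. The first motif was present in 41.6% of 33469 promoters of this length, the second in 7.33%, the third in 1.64% and the fourth in 14.2%.
Vegfc, chr16:44560838-44561137, minus strand: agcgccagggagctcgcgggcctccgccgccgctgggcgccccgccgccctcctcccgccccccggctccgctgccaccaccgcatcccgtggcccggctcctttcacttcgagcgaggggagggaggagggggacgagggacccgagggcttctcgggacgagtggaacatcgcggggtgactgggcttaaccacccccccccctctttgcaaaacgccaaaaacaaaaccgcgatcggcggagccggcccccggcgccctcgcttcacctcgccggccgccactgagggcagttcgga
Vegfd, chrX:33739843-33740142, minus strand: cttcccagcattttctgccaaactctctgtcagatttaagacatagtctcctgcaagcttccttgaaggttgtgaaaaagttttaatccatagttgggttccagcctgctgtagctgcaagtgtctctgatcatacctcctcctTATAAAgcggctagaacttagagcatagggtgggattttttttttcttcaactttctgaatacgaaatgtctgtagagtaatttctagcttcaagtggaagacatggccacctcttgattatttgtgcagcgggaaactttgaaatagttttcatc
Nrp1, chr19:73256307-73256606, plus strand: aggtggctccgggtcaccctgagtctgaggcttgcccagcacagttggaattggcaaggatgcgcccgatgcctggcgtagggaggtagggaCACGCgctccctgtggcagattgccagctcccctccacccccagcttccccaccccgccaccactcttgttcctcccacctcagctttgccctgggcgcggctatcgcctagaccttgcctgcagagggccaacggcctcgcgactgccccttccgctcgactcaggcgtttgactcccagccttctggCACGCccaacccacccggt

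The Vegfc window had a GC content of 73.0% and none of the motifs. The Vegfd window had 40.7% GC and held 1 TATAAA. The Nrp1 window held 2 matches to the hypoxia-inducible factor core, as did those of Nrp2 and Kdr. Those of Vegfb, Pgf and Flt1 held 1 each, and that of Flt1 also 1 TATAAA. The core is common enough that these matches only describe the letters. Neither Vegfa entry matched any of the motifs.

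Library totals ran from 111 to 152 M counts, which is more than the read depth that the study's methods give and not equal as the subsampling described there would leave them, and this was not resolved. Levels are given as CPM, that is, relative to the TMM-scaled total of each library. The siRNA targets were lowest in the libraries labelled for them, Rbpms from 40.7 to 7.21 CPM, Rbfox2 from 154 to 37.3 CPM and Qk from 233 to 26.6 CPM (means of 3 libraries). The targets also moved in the knockdowns of the others. Rbpms fell in RBFOX2 (to 23.1 CPM, log2 -0.81, adjusted p = 2.1e-09) and QKI knockdown (to 29 CPM, -0.49, adjusted p = 9.32e-07), and Qk fell in RBFOX2 (-0.42, adjusted p = 1.7e-08) and rose in RBPMS knockdown (0.18, adjusted p = 0.000297). Rbfox2 fell slightly in RBPMS (-0.12) and QKI knockdown (-0.15). The second RBPMS knockdown library stood apart from its replicates, with a chi-square per degree of freedom of 57.8 and 45.6 against them. The other 10 pairs within groups lay between 4.64 and 21.5. The highest of these were control 3 with control 2 (21.5) and with control 1 (15.5), against 6.09 between controls 1 and 2. Smooth muscle markers (8 of 8 measured) summed to 2110 to 2170 CPM in control, 1070 to 1180 in RBPMS, 827 to 925 in RBFOX2 and 1440 to 1530 in QKI knockdown. The sum is mostly Acta2, Tagln and Myl9, and not all of the list fell, with 2 of 8 higher in each knockdown and 6, 5 and 5 lower. Those higher were Myh11 in all 3, beside Myocd in RBPMS and QKI and Smtn in RBFOX2 knockdown. Pericyte markers (6 of 6 measured, carried by Cspg4, Pdgfrb and Notch3, with Rgs5 and Kcnj8 near 0) summed to 649 to 729, 676 to 807, 767 to 795 and 356 to 360 CPM in the same order. These sums hide opposite moves. Notch3 fell in each knockdown (log2 -2.42, -1.50 and -3.70). Cspg4 rose in RBPMS (0.34) and RBFOX2 (0.42) and fell in QKI (-0.89). Pdgfrb rose in RBPMS (0.25), fell in QKI (-0.60) and was not called in RBFOX2 (0.13). Abcc9, at 0.626 CPM or less, rose in each (3.01, 2.55 and 1.78). Endothelial markers (10 of 10 measured) summed to 34.7 to 39.5, 42.3 to 45.7, 39.3 to 40.7 and 43.4 to 46 CPM, most of it Egfl7. Cldn5 and Emcn were at or near 0 in control and Pecam1 had 9 to 18 counts there, whereas Cdh5 stood at 6.77 CPM. The higher sum in QKI knockdown followed Egfl7 (19.6 to 33.5 CPM). Tek (log2 0.66), Pecam1 (1.27) and Tie1 (2.14) also rose there, from 1.32 CPM or less in control, while Cdh5 (log2 -1.18), Esam (-0.89) and Erg (-0.74) fell. Leukocyte markers (6 of 6 measured) summed to 1.82 to 2.09, 2.53 to 3.1, 2.16 to 2.98 and 6.11 to 6.4 CPM, with Ptprc near 0. The sum in QKI knockdown was mostly Csf1r (0.405 CPM in control to 3.63) and Cd68 (1.04 to 1.98), both called higher. Csf1r was also called higher in RBPMS (log2 1.17) and RBFOX2 knockdown (0.76). What part these shifts have in the results that follow was not tested, and in bulk RNA fewer cells of a type cannot be told apart from less RNA per cell.

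All 3 knockdowns were compared with control to ask how each RNA-binding protein bears on the abundance of these transcripts. Vegfd and Vegfa rose and Vegfc and Nrp1 fell in every knockdown, but by very different amounts. Knockdown of QKI moved all 9 tested genes, where 32.9% of all genes tested were called higher and 34% lower. It lowered both neuropilins, Flt1 and Angpt1 past a halving, Flt1 only just. Knockdown of RBFOX2 gave the largest fall of a ligand, Vegfc at 3.9-fold lower, and raised Angpt1. Knockdown of RBPMS halved Nrp1 and left 4 of the 9 genes without a call. Of all genes tested, 30.4% were called higher and 29% lower there.

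At an adjusted p under 0.05 (edgeR quasi-likelihood test, Benjamini-Hochberg over 18438 genes), RBPMS knockdown gave 2 higher, 3 lower and 4 not past the test. Of all genes tested 30.4% were called higher and 29% lower in that comparison, so these counts are near the background. RBFOX2 knockdown gave 4 higher, 4 lower and 1 not past the test, against 30.1% of all genes higher and 30.1% lower. QKI knockdown gave 3 higher and 6 lower, against 32.9% and 34%. Past a doubling or halving as well were 1 gene in RBPMS, 2 in RBFOX2 and 5 in QKI knockdown, where the shares of all genes were 9.66%, 11.7% and 17.5%. The median log2 fold change of the 9 genes was 0.02 in RBPMS, -0.03 in RBFOX2 and -0.81 in QKI knockdown, against 0.01, 0.02 and 0.01 over all genes tested. The 3 comparisons share the control libraries.

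**Figure D1:**
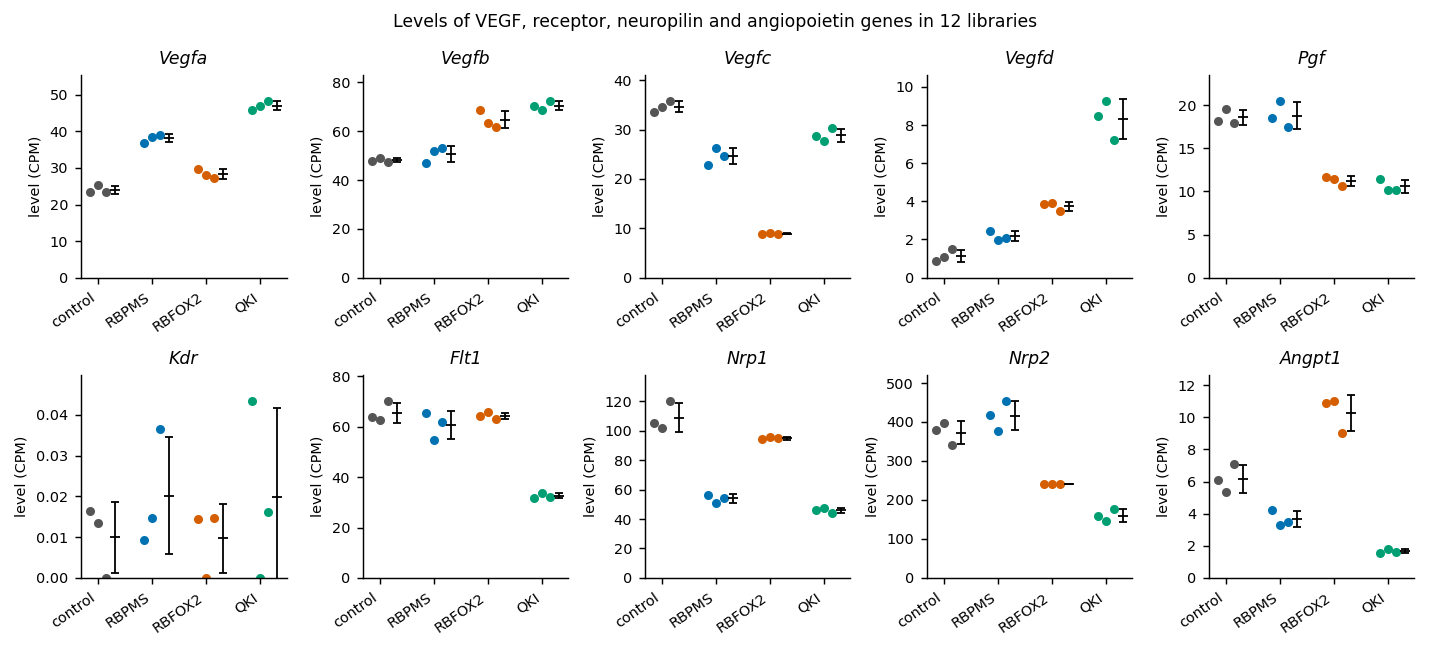
Levels in CPM (vertical axes, from 0, one scale for each gene) of the 10 genes in the 12 libraries, by siRNA (horizontal axes). Points are libraries and the bars beside them the mean ± SD of 3; Kdr, on a scale below 0.05 CPM, rests on 0 to 6 counts in a library, and the QKI libraries are highest for Vegfa, Vegfb and Vegfd and lowest for Flt1, Nrp1, Nrp2 and Angpt1.

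Vegfa encodes the main angiogenic VEGF, which signals through KDR and FLT1. It stood at 23.3, 25.2 and 23.3 CPM in control, 36.9, 38.4 and 38.9 in RBPMS, 29.8, 28.2 and 27.2 in RBFOX2 and 45.8, 46.9 and 48.3 in QKI knockdown. No library of a knockdown overlapped with control or with another knockdown, so the order from control through RBFOX2 and RBPMS to QKI was free of overlap. The rise was 0.67 on the log2 scale in RBPMS (SE 0.045, adjusted p = 1.21e-09), 0.25 in RBFOX2 (SE 0.046, adjusted p = 0.000163) and 0.97 in QKI knockdown (SE 0.045, adjusted p = 3.73e-12), the last a 1.96-fold change, which passed a doubling without control 2 (log2 1.01). Among the 10707 genes that averaged 5 CPM or more, 346 rose more in QKI knockdown. Gene counts sum over the splice forms of Vegfa, which were not separated here.

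Vegfb encodes a ligand of FLT1 and NRP1 known for roles in fat and muscle metabolism. Control libraries had 47.9, 49.0 and 47.3 CPM, RBPMS 46.8, 52.0 and 53.3, RBFOX2 68.7, 63.4 and 61.9, and QKI 70.3, 68.8 and 72.4. The RBFOX2 and QKI libraries lay above all of control and RBPMS, whose ranges overlapped each other. The log2 change was 0.43 in RBFOX2 (SE 0.049, adjusted p = 7.34e-07) and 0.55 in QKI knockdown (SE 0.049, adjusted p = 2.01e-08). In RBPMS knockdown it was 0.08 with a 95% interval of -0.027 to 0.181 (adjusted p = 0.193), which reached the threshold without the first RBPMS library (0.13, adjusted p = 0.0209).

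Vegfc, the principal lymphangiogenic ligand, acts through the receptor encoded by Flt4. It had 33.6, 34.6 and 35.8 CPM in control, 22.9, 26.2 and 24.7 in RBPMS, 8.83, 9.01 and 8.82 in RBFOX2 and 28.8, 27.6 and 30.3 in QKI knockdown. All 3 knockdowns lay below control, without overlap between groups, and RBFOX2 knockdown was far below the rest. The log2 change was -1.96 in RBFOX2 knockdown (SE 0.054, adjusted p = 7.28e-15), -0.49 in RBPMS (SE 0.051, adjusted p = 2.11e-07) and -0.26 in QKI (SE 0.050, adjusted p = 0.000196). Of the 10707 genes at 5 CPM or more, 35 fell further in RBFOX2 knockdown.

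Vegfd encodes the close relative of VEGF-C, which uses the same receptor. Its raw counts were 104, 158 and 203 in control and 1170, 1064 and 892 in QKI knockdown. The levels were 0.849, 1.06 and 1.49 CPM in control, 2.47, 1.98 and 2.09 in RBPMS, 3.85, 3.92 and 3.48 in RBFOX2 and 8.45, 9.26 and 7.2 in QKI knockdown. All 4 groups were apart, in the order control, RBPMS, RBFOX2 and QKI, and control was the most scattered for its level. The fold over control was 1.91 in RBPMS (log2 0.93, SE 0.16, adjusted p = 8.51e-05), 3.29 in RBFOX2 (log2 1.72, SE 0.15, adjusted p = 3.32e-08) and 7.29 in QKI (log2 2.87, SE 0.15, adjusted p = 1.75e-11). Leaving out control 3, the highest control, took the RBPMS change past a doubling (log2 1.18), as did leaving out the second RBPMS library (1.001).

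Pgf encodes placental growth factor, which binds FLT1 and not KDR. Levels were 18.2, 19.6 and 18.0 CPM in control, 18.5, 20.5 and 17.5 in RBPMS, 11.7, 11.4 and 10.6 in RBFOX2 and 11.5, 10.2 and 10.2 in QKI knockdown. Control and RBPMS formed the upper range and RBFOX2 and QKI the lower, each overlapping within. Pgf fell by 0.73 on the log2 scale in RBFOX2 (SE 0.067, adjusted p = 5.46e-08) and by 0.81 in QKI knockdown (SE 0.068, adjusted p = 1.09e-08). The interval in RBPMS knockdown was -0.121 to 0.159 around a log2 change of 0.02 (adjusted p = 0.828), whose sign turned without the second RBPMS library (-0.05).

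**Figure D2:**
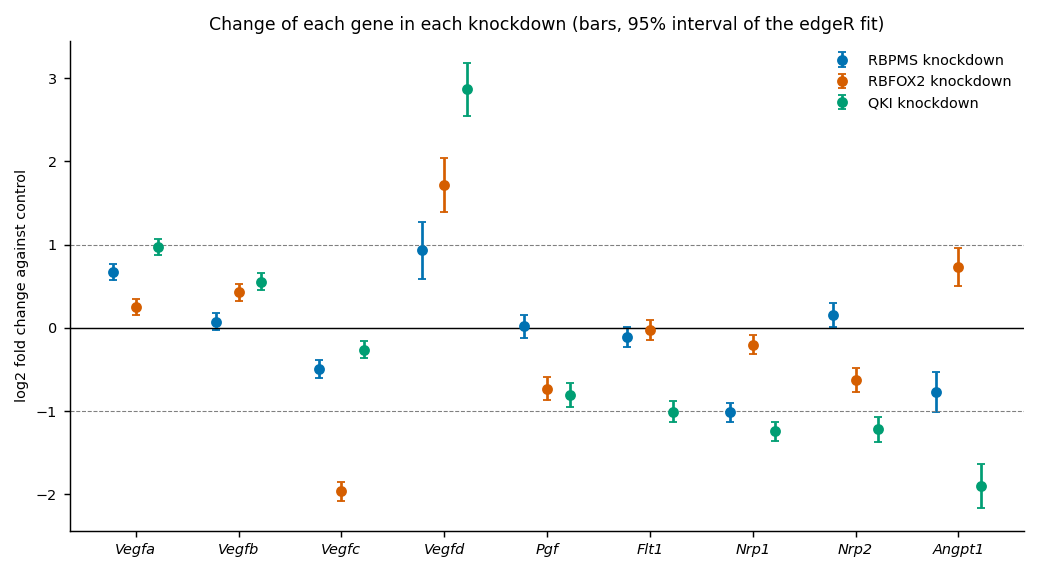
Log2 fold change against control (vertical axis) of the 9 tested genes (horizontal axis) in each knockdown, with 95% intervals of the edgeR fit; dashed lines mark a doubling and a halving. Vegfd lies highest in QKI knockdown (2.87), Vegfc lowest in RBFOX2 knockdown (-1.96), and Angpt1 is above 0 in RBFOX2 and below it in the other knockdowns.

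The receptor gene Kdr, which encodes the main signalling receptor for VEGF-A in endothelium, had 0 to 6 counts in each of the 12 libraries and was not tested. Flt4, the receptor gene for VEGF-C and VEGF-D, had 0 to 8 counts and was not tested either. Flt1 encodes a high-affinity receptor that also occurs as a soluble decoy, and these counts do not separate the forms. Its levels were 63.7, 62.6 and 70.1 CPM in control, 65.5, 54.6 and 62.0 in RBPMS, 64.1, 65.7 and 63.0 in RBFOX2 and 31.9, 33.7 and 32.2 in QKI knockdown. The QKI libraries were well below the other 9, whose groups overlapped one another. Flt1 changed by -1.005 on the log2 scale in QKI knockdown (SE 0.058, adjusted p = 6.69e-11), at the edge of a halving, which it missed without control 3 (-0.955), QKI replicate 1 (-0.99) or QKI replicate 3 (-0.997). In RBPMS knockdown the change was -0.11 (interval -0.229 to 0.011, adjusted p = 0.111), and without the first RBPMS library it passed the test at -0.17 (adjusted p = 0.0166). In RBFOX2 knockdown it was -0.03 (interval -0.146 to 0.093, adjusted p = 0.711).

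Nrp1 encodes the coreceptor that binds VEGF-A and semaphorin 3A. It stood at 105, 102 and 120 CPM in control, 56.6, 50.9 and 54.6 in RBPMS, 94.1, 95.6 and 94.9 in RBFOX2 and 46.1, 47.6 and 44.4 in QKI knockdown. No groups overlapped, with RBPMS and QKI low and RBFOX2 just below control. The log2 change was -1.01 in RBPMS (SE 0.054, adjusted p = 6.29e-11), -1.24 in QKI (SE 0.055, adjusted p = 1.7e-12) and -0.20 in RBFOX2 knockdown (SE 0.053, adjusted p = 0.00386). The RBPMS value no longer reached a halving without control 3 (-0.94) or without the second RBPMS library (-0.97), and the RBFOX2 value was -0.13 without control 3. Among the 10707 genes at 5 CPM or more, 186 fell further in RBPMS knockdown.

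Nrp2, the coreceptor for VEGF-C and semaphorin 3F, had 380, 397 and 342 CPM in control, 417, 378 and 453 in RBPMS, 241, 242 and 242 in RBFOX2 and 159, 145 and 177 in QKI knockdown. The RBFOX2 and QKI libraries lay below all others, while the ranges of control and RBPMS overlapped. Nrp2 fell by 0.63 on the log2 scale in RBFOX2 (SE 0.069, adjusted p = 4.92e-07) and by 1.22 in QKI knockdown (SE 0.070, adjusted p = 6.31e-11). In RBPMS knockdown the change was 0.16 (interval 0.012 to 0.303, adjusted p = 0.059), and it passed the test without the second RBPMS library (0.22, adjusted p = 0.00419) or without control 2 (0.20, adjusted p = 0.0314).

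Angpt1 encodes the TIE2 agonist angiopoietin-1. It had 6.12, 5.36 and 7.09 CPM in control, 4.21, 3.27 and 3.46 in RBPMS, 10.9, 11 and 9.01 in RBFOX2 and 1.56, 1.81 and 1.61 in QKI knockdown. Every group was apart from every other, with RBFOX2 above and both other knockdowns below control. The log2 change was 0.74 in RBFOX2 (SE 0.11, adjusted p = 1.41e-05), -0.77 in RBPMS (SE 0.12, adjusted p = 1.94e-05) and -1.90 in QKI knockdown (SE 0.13, adjusted p = 3.88e-10), the last 3.74-fold lower. Angpt1 was the only tested gene of the 9 that passed the test in opposite directions in different knockdowns in this fit. Nrp2 did so too in the settings where its rise in RBPMS knockdown passed.

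The knockdowns were also set against each other directly. RBPMS and RBFOX2 knockdown differed in 8 of the 9 genes, RBPMS and QKI in 9 and RBFOX2 and QKI in 8, where 56.7%, 61% and 68.5% of all genes tested differed. The largest of these differences was in Angpt1, 6.23-fold higher in RBFOX2 than in QKI knockdown (log2 2.64, SE 0.12, adjusted p = 4.22e-12). Vegfd was 3.81-fold higher in QKI than in RBPMS knockdown (adjusted p = 2.42e-09, edgeR), and Vegfc 2.77-fold higher in RBPMS than in RBFOX2 knockdown (adjusted p = 7.27e-13). Nrp2 separated RBPMS from QKI knockdown at 2.6-fold (adjusted p = 2.18e-11), whereas Nrp1 was 1.17-fold higher in RBPMS (adjusted p = 0.00146), a call lost when libraries were scaled by their totals alone (adjusted p = 0.114).

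Differences that did not pass were Flt1 between RBPMS and RBFOX2 knockdown (log2 -0.08, interval -0.203 to 0.038, adjusted p = 0.23) and Pgf between RBFOX2 and QKI knockdown (log2 0.08, interval -0.068 to 0.224, adjusted p = 0.331). Flt1 passed without the first RBPMS library (-0.14, adjusted p = 0.0434). Vegfb was lower in RBFOX2 than in QKI knockdown by a log2 of -0.12 (adjusted p = 0.0305), and this call was lost without RBFOX2 replicate 2 (adjusted p = 0.0728), RBFOX2 replicate 3 (adjusted p = 0.113) or QKI replicate 3 (adjusted p = 0.0826).

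Partners of these genes were read from lists of pathway members. Of 9 tested genes of the angiopoietin and TIE list (10 in all), 4 rose, 3 fell and 2 did not pass in RBPMS knockdown, 3 rose, 1 fell and 5 did not pass in RBFOX2, and 5 rose, 3 fell and 1 did not pass in QKI. Of all genes tested, 30.4% were called higher and 29% lower in RBPMS, 30.1% and 30.1% in RBFOX2 and 32.9% and 34% in QKI knockdown. The median log2 changes were 0.59, 0.50 and 0.66, which are the values of the low genes Tek, Angptl7 and Tek. All genes that rose in RBPMS and QKI knockdown averaged 2.09 CPM or less in every group. They were Angpt4, Tek, Tie1 and Angptl7, with Angptl4 in QKI. Those that rose in RBFOX2 knockdown were the low Angpt4 and Angptl6 and the more abundant Angptl2. Angpt2, whose product opposes angiopoietin-1 at TIE2 in many settings, had 29.8, 24.2 and 40.6 CPM in control, 18.9, 17.1 and 14.9 in RBPMS, 39.0, 38.5 and 33.3 in RBFOX2 and 5.26, 6.75 and 4.49 in QKI knockdown. It fell in RBPMS (log2 -0.89, adjusted p = 6.16e-05) and QKI knockdown (-2.52, adjusted p = 3.46e-10), and its value in RBFOX2 was 0.23 (adjusted p = 0.185). Ptprb, which encodes the phosphatase that dampens TIE2, fell in all knockdowns, by a log2 of -1.69, -1.22 and -4.65 in RBPMS, RBFOX2 and QKI. Tek, the TIE2 gene itself, was low at 1.32 CPM in control and rose in RBPMS (0.59) and QKI (0.66) knockdown, with -0.11 in RBFOX2 (adjusted p = 0.62). Tie1 had 2 to 12 counts in a library. Angptl2, a secreted angiopoietin-like protein, fell in RBPMS (-0.27), rose in RBFOX2 (0.67) and fell in QKI knockdown (-2.20), and Angptl4, another, rose in QKI knockdown (1.61), with 0.23 and 0.30 in RBPMS and RBFOX2 that did not pass.

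All 13 genes of the neuropilin partner list, semaphorins, plexins and the adaptor Gipc1, were tested. In RBPMS knockdown 3 rose, 9 fell and 1 did not pass (median log2 -0.42), in RBFOX2 4 rose, 3 fell and 6 did not pass (0.08) and in QKI 1 rose, 9 fell and 3 did not pass (-0.46). The RBFOX2 counts are near or below the 30.1% of all genes called in each direction, and the 9 that fell in RBPMS and QKI stand beside 29% and 34% of all genes. Plxnd1, a semaphorin receptor that pairs with neuropilins, stood at 109, 107 and 129 CPM in control, 46.3, 40.1 and 45.5 in RBPMS, 70.8, 66.4 and 64.2 in RBFOX2 and 32.5, 36.8 and 31.5 in QKI knockdown, and fell in each (log2 -1.39, -0.78 and -1.77). Plxna4 fell in each (-1.50, -0.48 and -2.73), and Plxna3 in RBPMS (-0.85) and QKI (-1.74), with -0.14 in RBFOX2 knockdown (adjusted p = 0.0571). Sema3b, a secreted semaphorin, rose in each (1.07, 1.29 and 1.04).

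**Figure D3:**
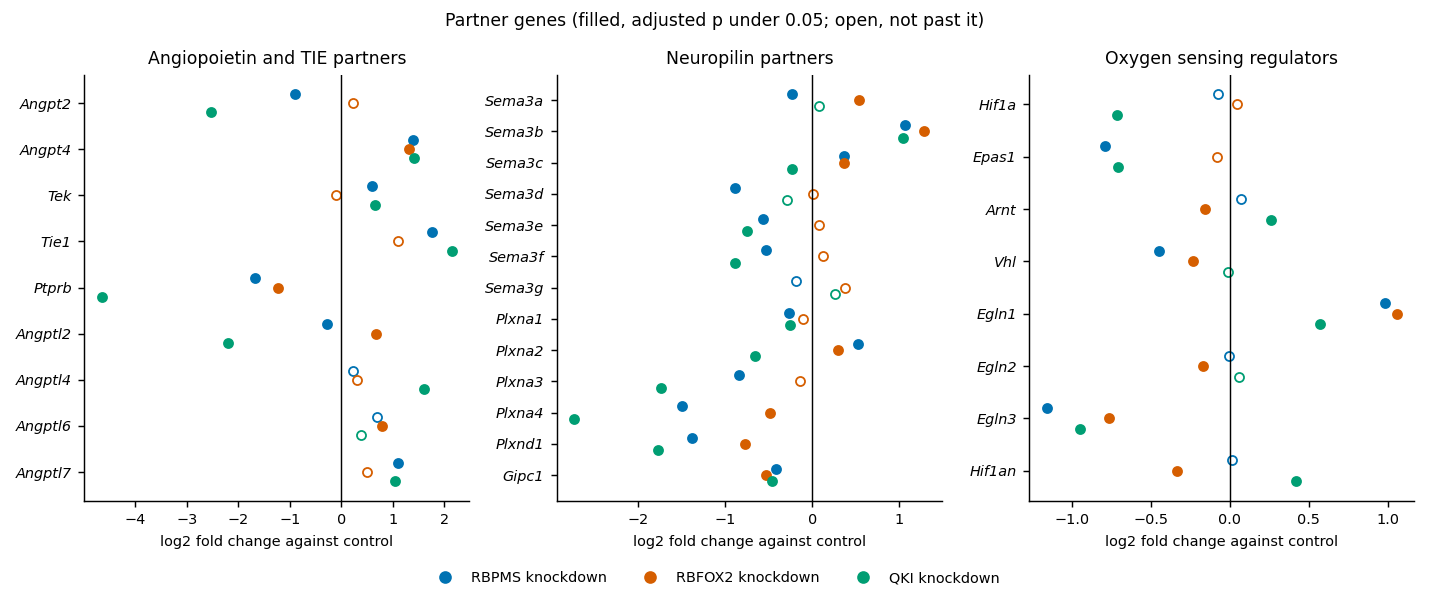
Log2 fold change against control (horizontal axes, a different scale in each panel) of tested partner genes (vertical axes) in 3 lists; filled points have an adjusted p under 0.05 and open points do not. Ptprb lies lowest, at -4.65 in QKI knockdown, Plxnd1 and Plxna4 lie below 0 in all knockdowns, and Egln1 lies above 0 in all.

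The VEGF receptor signalling list, 13 tested of 15, holds downstream genes and the untested receptor gene Flt4. It gave 1 higher, 7 lower and 5 not past the test in RBPMS, 2, 7 and 4 in RBFOX2 and 4, 9 and 0 in QKI knockdown. The medians on the log2 scale were -0.10, -0.13 and -0.26. Of all genes tested, 29%, 30.1% and 34% were called lower and 30.4%, 30.1% and 32.9% higher in these comparisons. Mapkapk2, the kinase that carries p38 signals to the actin-regulating protein HSP27, fell in all (-0.50, -0.88 and -2.15). Prkca, a protein kinase C gene, rose in RBFOX2 (0.38) and fell in QKI knockdown (-1.81), with -0.04 in RBPMS (adjusted p = 0.535).

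The list of oxygen-sensing regulators, 8 tested of 9, holds genes of the hypoxia-inducible factors that switch on Vegfa and genes that control these factors. Its counts and medians mix both kinds. In RBPMS knockdown 1 rose, 3 fell and 4 did not pass, in RBFOX2 1, 5 and 2, and in QKI 3, 3 and 2, with medians of -0.04, -0.17 and 0.02. The QKI counts are close to the 32.9% higher and 34% lower of all genes, and the others stand beside 30.4% and 29% in RBPMS and 30.1% each way in RBFOX2. Hif1a fell in QKI knockdown (log2 -0.72, adjusted p = 1.15e-11), from 118 to 71.7 CPM, with values of -0.08 and 0.04 in RBPMS and RBFOX2 that did not pass. Epas1, which encodes HIF-2α, fell in RBPMS (-0.79) and QKI (-0.71), with -0.08 in RBFOX2. Egln1, whose prolyl hydroxylase marks hypoxia-inducible factors for destruction, rose in each (0.98, 1.06 and 0.57), and the related Egln3, itself induced by hypoxia, fell in each (-1.16, -0.76 and -0.95).

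Of 10 hypoxia-induced genes, 2 rose, 6 fell and 2 did not pass in RBPMS knockdown, 3, 4 and 3 in RBFOX2 and 2, 7 and 1 in QKI, with medians of -0.30, -0.10 and -0.31. The RBFOX2 counts are near the 30.1% of all genes called each way, where RBPMS had 30.4% higher and 29% lower and QKI 32.9% and 34%. Vegfa itself rose in each knockdown. Ankrd37 fell in each (-0.44, -1.49 and -1.78), as did Bnip3, a mitophagy receptor (-0.27, -1.23 and -0.68). Ndrg1 rose in RBPMS (0.66) and fell in QKI (-1.33), with 0.03 in RBFOX2 knockdown (adjusted p = 0.816).

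Secreted and matrix proteins that modulate VEGF or vessel growth, 13 tested of 13, gave 3 higher, 8 lower and 2 not past the test in RBPMS, 4, 6 and 3 in RBFOX2 and 5, 6 and 2 in QKI knockdown, with medians of -0.18, -0.06 and -0.05. The shares of all genes called higher and lower were 30.4% and 29% in RBPMS, 30.1% and 30.1% in RBFOX2 and 32.9% and 34% in QKI, and the rises in RBFOX2 and QKI are near them. Thbs1, the antiangiogenic thrombospondin-1, rose in each (1.34, 1.24 and 0.68), from 778 CPM in control to 1970, 1840 and 1240. Its relative Thbs2 fell in each (-0.58, -0.65 and -1.41). Ccn2, a connective tissue growth factor that binds VEGF-A, also fell in each (-0.16, -0.59 and -1.32), and Timp3, a metalloproteinase inhibitor that blocks KDR, fell in QKI knockdown (-1.12), with -0.05 and -0.02 in the others.

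Where a gene averaged 5 CPM or more and moved past a doubling or halving in some knockdown, its 3 most similar genes were sought among 10046 others, by the root mean square difference of centred log2 CPM over the 12 libraries. Libraries of a group share their treatment, so the likeness describes mostly the 4 group means and carries no test. Vegfc ran closest to Snx15 and Slc8b1 (0.103 each) and Dag1 (0.117), against its own SD of 0.796. Nrp1 ran closest to Sort1 (0.0717), Itpr2 (0.097) and Slc22a18 (0.0982), against 0.551. Flt1 ran closest to Ncoa3 (0.0539), Lmo7 (0.0612) and Med14 (0.0641), against 0.441, and Nrp2 to Cited2 (0.132), C1galt1 (0.133) and Kif23 (0.135), against 0.578. Angpt1 ran closest to Gprc5b (0.256), Zmat1 (0.262) and Slc16a14 (0.264), against 1.02. These distances were larger than for the other genes, and so was its SD.

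**Figure D4:**
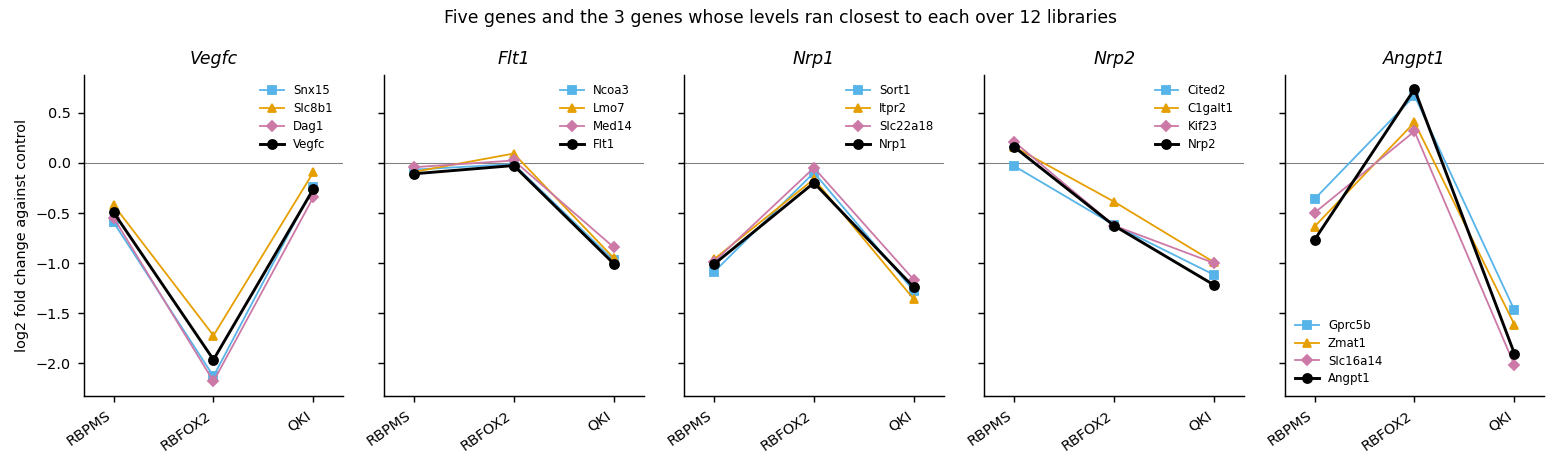
Log2 fold change against control (vertical axis) in the 3 knockdowns (horizontal axes) of the 5 genes compared and of the 3 genes nearest to each. Vegfc and its neighbours dip in RBFOX2 knockdown (-1.72 to -2.18), and Angpt1 and its neighbours are above 0 there and lowest in QKI knockdown.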

How the data were processed

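Poly(A) RNA from 12 libraries in 4 groups of 3 was sequenced with a directional kit. The authors deposited raw counts per gene, made per the study's methods by alignment to mRatBN7.2 and counting against a RefSeq annotation, and a quantile-normalised signal table made by the authors after a noise filter. The submitters' processing notes name STAR 2.5.2a, edgeR 3.28.1 and DESeq2 1.30.0 among the tools. How shared or overlapping reads and strand were counted is not given in the sources used here. Of values from 1 to 19, 68.1% were even, against 50.9% above 1000, for a reason that was not tested, and a fit on halved counts was run beside the main one.

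Groups came from sample titles. Counts were fitted over all 12 libraries with edgeR 4.0.16 in R 4.3.3 (filterByExpr, TMM, glmQLFit and glmQLFTest, two-sided, common dispersion 0.00241), and p-values were adjusted by Benjamini-Hochberg over 18438 genes. SE is the log2 change divided by the square root of F. With 3 against 3 libraries, an exact permutation test cannot go below 0.1. Alternatives used RLE factors, library totals, no filter, a replicate block, DESeq2 1.42.0, limma 3.58.1 on the deposited signal (pseudocount 1), the 6 libraries of a comparison alone, and each library left out. The procedure was also run on counts simulated with a single dispersion for all genes. That setting lacks the uneven spread seen between these libraries, so the run checked the code and not the p-values.

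The genes and lists were chosen with earlier results of these data known. Named partners were, from each list, up to 4 genes past a doubling or halving in any knockdown with a mean of at least 1 CPM, plus Flt4, Tek, Angpt2, Tie1, Hif1a and Epas1. Like genes had to average 5 CPM or more and to have a named symbol. The replicate numbers did not pair the libraries. Promoter letters are from RefSeq (GRCr8), which is not the authors' build. Intervals are for the log2 change and rest on the spread between libraries. Splicing was not analysed here.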

Additional observations from a re-analysis of the deposited data

How the results depend on the processing

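In the main fit 10946, 11113 and 12336 of the 18438 genes tested were called in RBPMS, RBFOX2 and QKI knockdown. Among the 9 genes, the numbers called stayed within 1.5 times of those reported under every alternative. They were 5 to 7 in RBPMS, 8 in RBFOX2 and 9 in QKI knockdown, and past a doubling or halving 1, 2 and 4 to 6. The single such gene in RBPMS knockdown was Nrp1, or Vegfd without control 3 or without the second RBPMS library. Vegfa in QKI knockdown passed a doubling with library totals (1.06), in the normalised signal (1.04) and without control 2 (1.01), and Flt1 there missed a halving with library totals (-0.92), in the normalised signal (-0.93) and, at -0.999, with RLE factors, halved counts and DESeq2. Among the log2 changes of the 9 genes, the signs that turned are these. Pgf in RBPMS knockdown was -0.026 with library totals, and between -0.049 and 0.07 when 1 library was left out. Flt1 in RBFOX2 knockdown was 0.028 with library totals, 0.002 in the normalised signal and between -0.06 and 0.024 with 1 library left out. Pgf between RBFOX2 and QKI knockdown was -0.08 in the normalised signal. In these cases the cause was not tested. The difference of Nrp1 between RBPMS and QKI knockdown was lost with library totals (0.10). Flt1 in RBPMS knockdown passed the test with library totals (-0.15), without the filter (-0.13) and in the normalised signal (-0.15), Nrp2 in RBPMS knockdown without the filter (0.14), and Flt1 between RBPMS and RBFOX2 knockdown with library totals (-0.18) and in the normalised signal (-0.15). Vegfc in QKI knockdown was -0.16 in the normalised signal and -0.17 with library totals. Library totals moved the median of all genes to -0.11 between RBPMS and RBFOX2 knockdown and to -0.12 between RBPMS and QKI knockdown, and the share of calls that were higher from 50.8% to 36.6% and from 52.5% to 38.1%.

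Same-numbered libraries did not deviate together (18 pairs, r between -0.344 and 0.246, 4 over 0.1), and 3 of 12 libraries correlated best with their own number. With a replicate block the called genes were 5, 8 and 9 of the 9 in RBPMS, RBFOX2 and QKI knockdown, and 10800, 11001 and 12235 of all genes, and no call among the 9 changed, against control or between knockdowns. Kdr and Flt4 had too few counts to test.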
